A study of Homo sapiens with 2 samples.

Results

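Expressed ZNF zinc finger genes were examined in Ca9-22, a gingival squamous carcinoma line, stably carrying either an empty vector or a vector for RUNX2. RUNX2 is a runt-domain transcription factor best known from bone formation. Both groups were selected with blasticidin, and each was represented by 1 Affymetrix array of biotin-labelled cRNA, so there are no replicates, no test was possible, and precision is limited by the number of arrays. The sources used here name neither the promoter of the vectors nor whether the lines were clones or pools. The members were chosen by their annotated name and by their intensity. A gene entered if a probe set named it alone, its symbol was ZNF followed by a number, and its intensity lay above the median of all probe sets that are not controls on both arrays. Of 467 ZNF genes with a probe set of their own, 302 met this rule, among 12028 genes of any name that met it. Of the others, 11 lay above the median of 1 array only and 154 above neither. The members were 297 protein-coding genes and 5 transcribed pseudogenes.

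ZNF genes mostly encode proteins with C2H2 fingers, loops in which cysteines and histidines hold a zinc ion and which read short stretches of DNA side by side. They form the largest family of human transcription factors, and many sit in clusters that arose by tandem duplication, above all on chromosome 19. A large share carries a KRAB domain, which binds the co-repressor TRIM28. TRIM28 in turn recruits the histone methyltransferase SETDB1 and HP1 proteins, and this machinery is known for silencing transposable elements. A few genes with a ZNF symbol encode proteins of other kinds, such as the LIM protein ZNF185 and the ubiquitin ligase ZNF598.

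Intensities are in arbitrary units, and those of the array labelled RUNX2 were multiplied by 0.966 so that both arrays had the same 2% trimmed mean. Ratios are the array labelled RUNX2 over the empty vector array. The RUNX2 probe sets themselves went both ways. Of 3 above both medians, 2 were 4.17-fold and 3.47-fold higher in the array labelled RUNX2 and 1 was 4.03-fold lower, so every direction given here rests on the label. The cell type label was borne out by all 7 squamous epithelial markers with a probe set of their own, KRT5 and KRT14 among them, which lay above the median of both arrays. None of 5 leukocyte markers did, nor did 6 of 7 fibroblast markers, the exception being COL1A1 (1937 and 1553). Of 4 endothelial markers, VWF and PECAM1 lay just above the median of both arrays.

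As a set, the ZNF genes differed little between the arrays, and by less than genes in general at the extremes. The intensities of the 302 members correlated between arrays with r = 0.958 on the log2 scale, where genes of 1 pair of arrays are not independent replicates. Their log2 ratios ran from -1.20 to 1.09 with a median of -0.11 and an interquartile range from -0.32 to 0.11. The median over all 12028 genes was -0.05. At least 2-fold lower were 2 members, ZNF449 and ZNF25, and 1 member, ZNF789, was at least 2-fold higher. These 3 are 0.993% of the members, whereas 2.92% of all genes passed 2-fold in either direction (1.48% lower and 1.44% higher). At 1.5-fold, 22 members were lower, 7.28% of them against 6.83% of all genes, and 11 were higher, 3.64% against 5.89%. Ratios below 0 were found for 191 members, 63.2%, against 56.3% of all genes. Since intensities helped to choose the members and both arrays enter each ratio, these shares describe the set and test nothing.

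**Figure D1:**
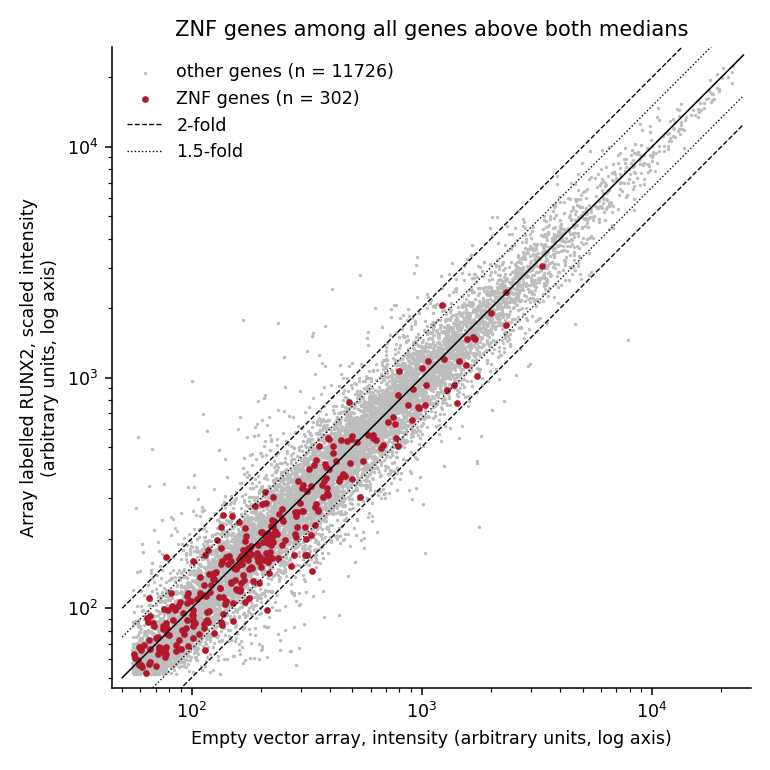
Intensity of each gene on the empty vector array (horizontal, arbitrary units, log axis) against its scaled intensity on the array labelled RUNX2 (vertical, log axis), for 302 ZNF genes in red and 11726 other genes in grey. Solid, dotted and dashed lines mark equality, 1.5-fold and 2-fold; 3 ZNF genes lie beyond a dashed line.

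The 1.5-fold counts split differently under other scalings. On the deposited scale without a factor there were 18 lower and 14 higher members, and after equalising the medians of the arrays there were 15 and 17. The factor shifts all genes alike. Of all genes, 5.70% were lower and 7.13% higher without a factor, and 4.71% and 8.34% with equal medians, against 5.96% and 4.64%, then 4.97% and 5.63%, of the members. The share of members below 0 was 57.9% and 52.0%, against 50.2% and 45.3% of all genes. In each of these scalings the members' median lay 0.06 below that of all genes on the log2 scale.

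The position of the ZNF genes relative to other genes varied with their intensity. Other genes were weighted so that they filled 20 intensity classes in the same proportions as the members. Their weighted median log2 ratio was -0.08, which left a difference of -0.03 between members and other genes. Of these weighted genes, 58.6% lay below 0, 7.65% were at least 1.5-fold lower and 6.05% at least 1.5-fold higher, and 3.40% passed 2-fold either way. Their interquartile range was -0.29 to 0.18. In the 5 lowest classes, with intensities up to 140, the 113 members had a median of -0.10 and the other genes one of -0.15. In the other groups of 5 classes the order was the opposite, although within them classes 12 and 13 had the members higher, by 0.02 and 0.16, and among the 5 lowest classes the third had them lower, by 0.03 on the log2 scale. In classes 6 to 10 the 118 members had -0.10 and other genes -0.03. In classes 11 to 15 the 46 members had -0.11 and other genes -0.00, and in classes 16 to 20, from 788 upwards, the 25 members had -0.17 and other genes -0.01. In these 5 highest classes 19 of 25 members lay below 0, 76.0%, against 50.8% of other genes. These groups of classes were chosen after the values had been seen. Near the median of the arrays other genes spread less (SD 0.180 in the lowest class) than further up (SD 0.510 in the fifth class). The rule itself limits this spread, since a gene had to exceed 55.3 with the empty vector and 51.8 with the RUNX2 label. In the lowest class, with mean intensities from 54.0 to 67.3, no gene could therefore reach 2-fold. As these bounds differ, the ratios possible there were centred slightly below 0. The parts of the rule and of background signal in the spread, medians and shares below 0 of the low classes were not tested.

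**Figure D2:**
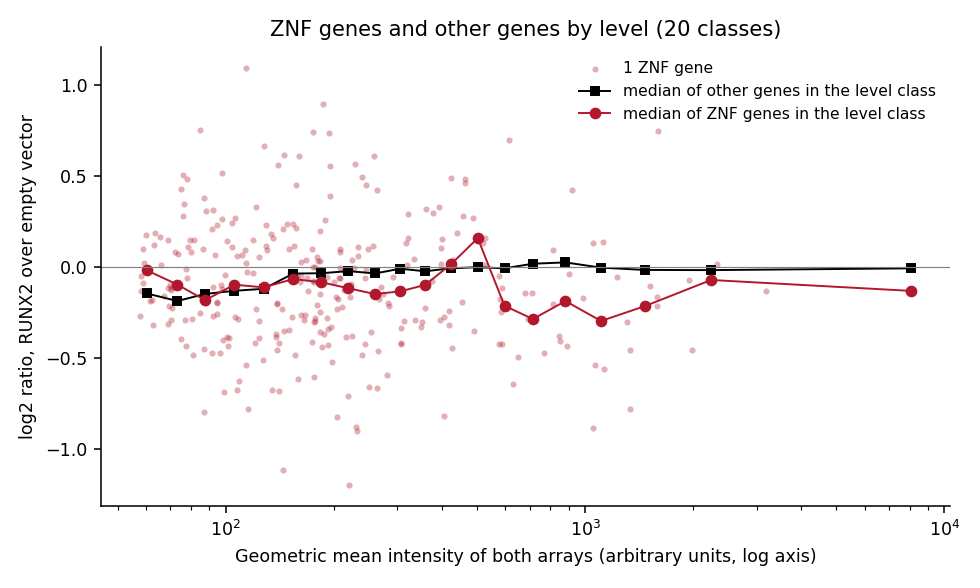
Log2 ratio of the array labelled RUNX2 over the empty vector array against the geometric mean intensity of both arrays (log axis). Pale points are single ZNF genes, red circles are the medians of the ZNF genes and black squares those of other genes in each of 20 intensity classes. In 14 of 20 classes the ZNF median is the lower one, and in the first and second class it is the higher one.

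**Figure D3:**
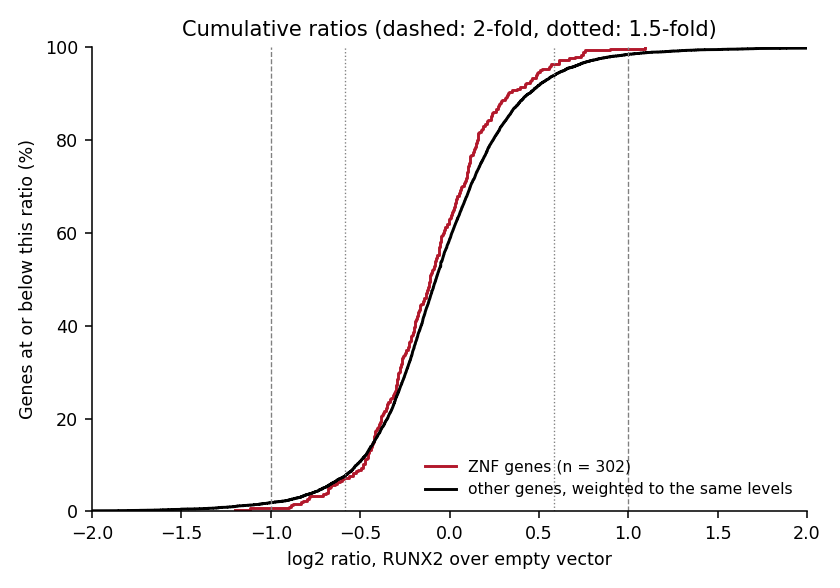
Share of genes at or below each log2 ratio, for 302 ZNF genes (red) and for the other genes weighted to the same intensities (black). The curves are close together, with medians of -0.11 and -0.08, and the ZNF curve is the steeper one, with fewer genes beyond the 2-fold lines.

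The lowest ratios among ZNF genes belonged to ZNF449 on chromosome X and ZNF25 on chromosome 10. ZNF449 read 334 with the empty vector and 145 in the array labelled RUNX2. It was 2.30-fold lower, from 1 probe set. ZNF25 read 213 and 98.3 in its brightest probe set and 162 and 78.5 in another, with log2 ratios of -1.12 and -1.05. These ZNF25 probe sets were both past 2-fold in the same direction. ZNF397, a gene of chromosome 18, went from 317 to 170. ZNF277, reported to bind the Polycomb protein BMI1, went from 1430 to 774, 1.85-fold lower. Another probe set of ZNF277 had a log2 ratio of -0.85, from 269 to 149, and a further one had -0.13. ZNF281, a factor that binds GC-rich promoters and is known from stem cells, was lower in all 3 of its probe sets. Its intensities were 1747 and 1017 in the brightest, 1641 and 1020 in the next and 1175 and 793 in the last, with log2 ratios from -0.78 to -0.57. The remaining 7 of the 12 lowest were ZNF600, ZNF717, ZNF581, ZNF564, ZNF836, ZNF573 and ZNF391, each read by 1 probe set above both medians. Their log2 ratios ran from -0.88 in ZNF600 to -0.69 in ZNF391. The probe sets of ZNF600 and ZNF836 end in _x_at and that of ZNF581 in _s_at, so they may match more than 1 transcript.

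The widest ratio upwards, that of ZNF789 on chromosome 7, was not shared by its own probe sets. The brightest read 77.8 with the empty vector and 166 in the array labelled RUNX2, a log2 ratio of 1.09. Its other probe sets had 0.20 (91.6 and 105) and -0.36 (81.4 and 63.4). ZNF367 was next, from 137 to 254 in its 1 probe set above both medians, an _x_at. ZNF207, whose product BuGZ binds the checkpoint protein BUB3 at kinetochores, was split between its probe sets. It went from 1228 to 2064 in its brightest probe set and from 1095 to 1761 in the next. Its other 6 probe sets had log2 ratios from -0.42 to 0.35, 3 of them below 0. ZNF326, a protein of a complex that couples splicing to transcription, rested on 1 of its probe sets, with 481 and 783 in the brightest and 163 and 154 in the other. ZNF268 was higher in both of its probe sets, from 129 to 198 and from 94.6 to 147. The pseudogene ZNF252P had log2 ratios of 0.57 and -0.18 and ZNF765 of 0.74 and 0.17. ZNF594, ZNF587B, ZNF81, ZNF544 and ZNF107 were read by 1 probe set each, with ratios from 0.76 in ZNF594 to 0.61 in ZNF544 and ZNF107. The probe sets of ZNF587B and ZNF107 and the brightest of ZNF765 and ZNF207 end in _x_at. That of ZNF544 and the next of ZNF207 end in _s_at, so these too may match more than 1 transcript.

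**Figure D4:**
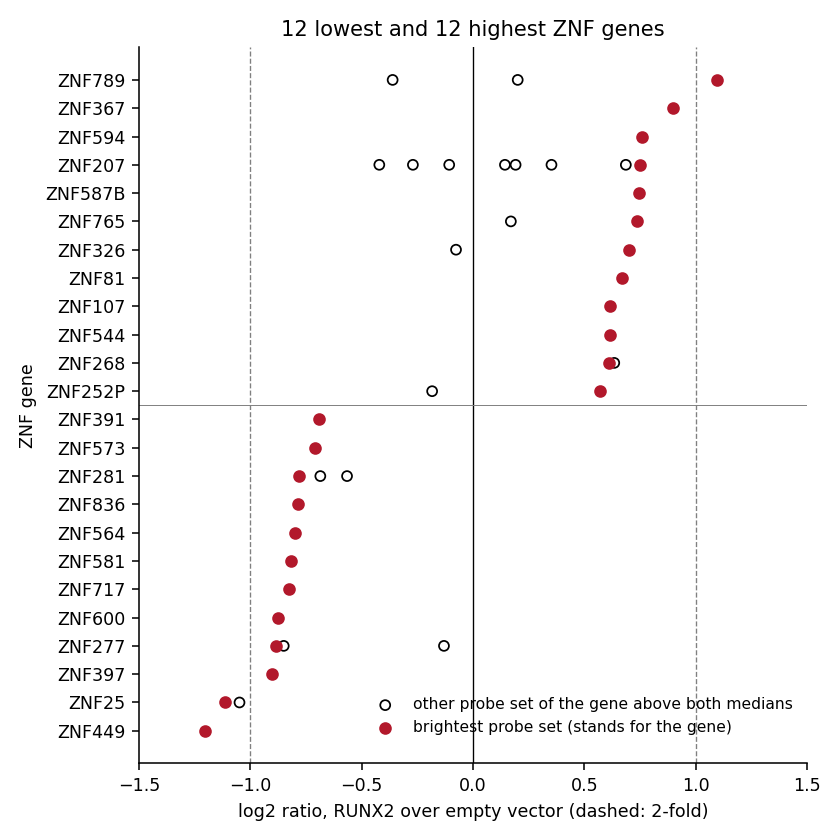
Log2 ratios of the 12 lowest and 12 highest ZNF genes (horizontal axis; dashed lines mark 2-fold). Red points are the brightest probe set, which stands for the gene, and open circles the other probe sets above both medians. Open circles lie beside the red point for ZNF25, ZNF281 and ZNF268, and cross 0 for ZNF789, ZNF207, ZNF326 and ZNF252P.

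The probe sets of 1 gene gave a spread within the arrays, which is not a replicate error. It was an SD of 0.262 on the log2 scale over 115 members with 2 or more probe sets above both medians, and 0.290 over 5614 such genes of any name. All probe sets lay below 0 in 59 of these 115 members, all lay above 0 in 20, and they were split in 36. The next brightest probe set did not stand for the gene but had to pass the same medians on both arrays. It had a median log2 ratio of -0.15 over the 115 members, with 77 below 0 (67.0%). Over all genes with such a probe set the median was -0.01 and 51.2% lay below 0. The comparison was not matched for intensity. In the 5 lowest intensity classes, 70.6% of the genes that are not members lay below 0 in the brightest probe set. Brightest and next probe sets correlated with r = 0.50 over the 115 members and r = 0.60 over all such genes. They share the arrays and the RNA. Another probe set was available for 7 of the 22 members at least 1.5-fold lower. In 2 of these, ZNF25 and ZNF862, every probe set was at least 1.5-fold lower, and in 1, ZNF451, a probe set had the other sign. It was available for 5 of the 11 higher members, where every probe set of 1, ZNF268, was at least 1.5-fold higher and 3 had a probe set of the other sign, ZNF789, ZNF207 and ZNF326.

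ZNF transcripts share sequence through their common ancestry, and 85 members stood on an _x_at or _s_at probe set. These had a median log2 ratio of -0.07, with 4 at least 1.5-fold lower (4.71%) and 6 higher (7.06%). Of 4240 genes of any name on such probe sets the median was -0.02, with 4.74% lower and 6.08% higher. The 217 members on other probe sets had a median of -0.13, with 18 lower (8.29%) and 5 higher (2.30%). Of 7788 genes of any name on other probe sets the median was -0.07, with 7.97% lower and 5.78% higher. A further 61 probe sets carried several symbols with a ZNF gene among them and named no member.

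At the edge of the rule, ZNF354C entered with 63.2 and 52.5 and ZNF786 with 56.2 and 63.5, the medians being 55.3 and 51.8. ZNF280B stayed out with 60.7 and 51.7, as did ZNF443 with 67.3 and 50.5. With the 11 genes above the median of 1 array only included at their bounds, the 1.5-fold counts were again 22 lower and 11 higher. Raising a value to its bound limits the ratio, so these counts had little room to change. They are 7.03% and 3.51% of the members, against 6.88% and 5.77% of all genes in this setting.

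Because RUNX proteins are known to bind the core TGTGGT, which reads ACCACA on the other strand, the RefSeq promoter table (GRCh38.p14) was searched for it on both strands. It held a window from 250 bases before to 50 bases after a start site for 256 of 302 members, and 1 window per gene was used, the one with the lowest position. The hexamer was present in 33 of these, 12.9%, in 9.23% of 9521 windows of other genes above both medians, and in 13.2% of all 27305 windows. For comparison, the hexamer TGTGAT on either strand was present in 14 windows of members, 5.47%, in 533 of the 9521 windows of other genes and in 11.3% of all windows. The hexamer TGAGGT was present in 12.1% of members, 11.1% of other genes and 14.4% of all windows. Matches of different hexamers could overlap. The median GC content of the members' windows was 62.0%, and that of the other genes 65.3%. The 33 members with TGTGGT had a median log2 ratio of -0.21, with 25 below 0 (75.8%), 3 at least 1.5-fold lower (9.09%) and 0 at least 1.5-fold higher. The 223 without it had a median of -0.11, with 139 below 0 (62.3%), 15 lower (6.73%) and 11 higher (4.93%). Among the other genes above both medians, the 879 with the hexamer had a median of -0.06, with 55.9% below 0, 5.57% lower and 5.80% higher. The 8642 without it had a median of -0.04, with 55.0% below 0, 6.91% lower and 6.01% higher. The difference between these groups was not tested. Shown here are the bases before the start site for the members with the lowest and the highest ratio among those that carry the hexamer there, and for ZNF22, the lowest of those that carry it at 2 places. Capitals mark the hexamer, each sequence reads towards the start site, and a match is a run of letters and no evidence of binding.
ZNF277, chr7:112206445-112206694, + strand: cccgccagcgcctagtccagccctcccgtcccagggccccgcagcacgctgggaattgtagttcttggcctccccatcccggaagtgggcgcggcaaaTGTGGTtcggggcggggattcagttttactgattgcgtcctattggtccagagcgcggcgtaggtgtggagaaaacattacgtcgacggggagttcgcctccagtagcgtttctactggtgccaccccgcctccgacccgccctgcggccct
ZNF22, chr10:45000673-45000922, + strand: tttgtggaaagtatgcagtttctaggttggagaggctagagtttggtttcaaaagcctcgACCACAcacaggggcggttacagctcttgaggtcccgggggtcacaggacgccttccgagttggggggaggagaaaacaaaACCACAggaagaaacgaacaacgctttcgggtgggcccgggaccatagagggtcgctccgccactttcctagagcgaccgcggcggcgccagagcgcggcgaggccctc
ZNF787, chr19:56121296-56121545, - strand: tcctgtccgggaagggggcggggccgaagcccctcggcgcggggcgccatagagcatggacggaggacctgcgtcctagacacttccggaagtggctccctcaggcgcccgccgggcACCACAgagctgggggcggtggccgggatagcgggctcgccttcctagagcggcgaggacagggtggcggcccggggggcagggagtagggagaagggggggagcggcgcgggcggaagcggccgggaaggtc

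In ZNF277 the hexamer begins 152 bases before the start site, in ZNF22 at 190 and 109 bases, and in ZNF787 at 133 bases. The gene ratios beside these windows were -0.88 for ZNF277, -0.54 for ZNF22 and 0.38 for ZNF787. The second probe set of ZNF22 had -0.47.

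ZNF genes with a well known role were listed by name, and 29 of 34 were members. Their median log2 ratio was -0.17, with 20 below 0, 2 at least 1.5-fold lower and 2 at least 1.5-fold higher, which are 6.90% each. Of all genes, 56.3% lay below 0, 6.83% were at least 1.5-fold lower and 5.89% at least 1.5-fold higher. The 2 higher genes were ZNF207 and ZNF326, and the 2 lower genes were ZNF281 and ZNF451. ZNF451, a SUMO ligase, was split, with 788 and 505 in the brightest probe set and 385 and 546 in the next.

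No listed member that represses transposable elements or imprinted genes reached 1.5-fold in its brightest probe set. ZNF91, known to repress SVA elements, read 157 and 120. ZNF93, known to repress LINE elements, read 65.5 and 57.4, near the median. ZNF445, which maintains imprints, read 234 and 209, and ZNF274, which brings SETDB1 to other ZNF genes, read 486 and 425. Their log2 ratios ran from -0.38 in ZNF91 to -0.16 in ZNF445, with 0.16 in another probe set of ZNF274. ZNF10, the source of the KRAB domain used in CRISPR interference, was at 63.9 and 90.7, a log2 ratio of 0.51. ZNF638, which recruits the HUSH silencing complex to retroviral DNA, had -0.22 in its brightest probe set and lay below 0 in all 5, down to -0.72. ZNF644, a partner of the methyltransferases EHMT1 and EHMT2, had -0.11, with 0.38 and -0.16 in its other probe sets.

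ZNF217, an oncogene amplified in breast cancer that acts through the CoREST repressor, read 1376 and 930, 1.48-fold lower, from 1 probe set. ZNF24 had log2 ratios of -0.47, -0.11 and 0.22 in its 3 probe sets. ZNF750, a regulator of epidermal differentiation, read 523 and 526 on the arrays, a log2 ratio of 0.01 that was below 0 after quantile normalization. ZNF703, known from luminal breast cancer, read 67.8 and 86.4. ZNF143, an activator of small nuclear RNA genes, had a ratio of 0.28. ZNF148, which binds GC-rich promoters, lay below 0 in all 6 of its probe sets, from -0.04 in the brightest, at 915 and 893, to -1.25 in the last. Without the scaling factor the brightest was at 0.01. Of the genes acting in translation, ZNF598, which marks collided ribosomes, had 0.42 and -0.38 in its probe sets, and ZNF622, a factor of large ribosomal subunit maturation, had 0.13. The other listed members had log2 ratios in the brightest probe set between -0.54 in ZNF267 and 0.27 in ZNF292.

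Position in the genome was described from the RefSeq gene table without coordinates. Chromosome 19 held 107 of the 302 members, 35.4%, against 5.94% of other genes. Its members had a median log2 ratio of -0.12 with 71 below 0, and the 195 members elsewhere had one of -0.10 with 120 below 0. The other genes of chromosome 19 had a median of -0.06. The lowest medians were found for the members of chromosomes 6 and 18, chosen here after their values were seen. Of all genes, 56.3% lay below 0 and 6.83% were at least 1.5-fold lower. On chromosome 6, 9 of 10 members lay below 0, with a median of -0.39, whereas the other 620 genes of that chromosome had a median of -0.04. Of these members, 4 were at least 1.5-fold lower in the brightest probe set: ZNF391, the cancer-testis gene ZNF165, ZNF451 and the pseudogene ZNF204P. The next probe set of ZNF451 had a log2 ratio of 0.50. ZNF165 went from 315 to 199 and ZNF204P from 345 to 229. ZNF292 was the member of chromosome 6 above 0. On chromosome 18, 7 of 8 members lay below 0, with a median of -0.34, and the other 161 genes had a median of -0.03. The exception was the pseudogene ZNF271P at 0.29.

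**Figure D5:**
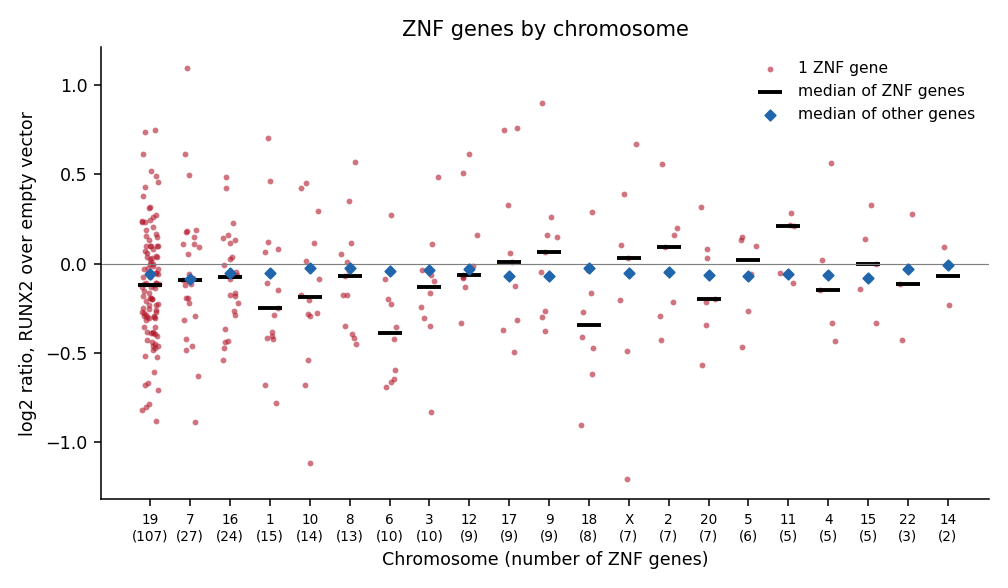
Log2 ratio of each ZNF gene by chromosome, ordered by the number of ZNF genes (in brackets). Red points are single genes, black bars the medians of ZNF genes and blue diamonds the medians of the other genes of the chromosome. The black bars of chromosomes 6 and 18 lie lowest, at -0.39 and -0.34.

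Genes that stand side by side went in the same direction in some runs and not in others. Of the members, 169 lay beside another protein-coding ZNF gene with no other protein-coding gene between them. Their median was -0.12, and that of the 133 others was -0.10. The run with the most members reached from ZNF283 to ZNF180 on chromosome 19 and held 12 members among 20 ZNF genes. Its median was -0.11, with 7 below 0, from ZNF226 at -0.43 to ZNF234 at 0.31. ZNF222, ZNF227 and ZNF224 had -0.39, -0.30 and -0.30, while ZNF180 and ZNF235 had 0.23 each. The run from ZNF627 to ZNF791, with 9 members, had a median of -0.08, and ZNF564 was its lowest member at -0.80. It had 7 members below 0. There were 3 runs of 7 members. That from ZNF566 to ZNF793 had a median of -0.05, between ZNF527 at -0.47 and ZNF585A at 0.27. That from ZNF551 to ZNF256, also on chromosome 19, had a median of 0.16 with 2 below 0, and ZNF587B was its highest member. That from ZNF786 to ZNF746 on chromosome 7 had a median of 0.05 with 3 below 0, between -0.12 and 0.18. Of 43 runs with 2 or more members, 14 had all of them below 0, 1 had all above 0 and 28 were split. Within these runs the pooled SD was 0.333, and over all members it was 0.349. Adjacent members of a run correlated with r = 0.110 over 105 pairs, of which 61 had the same sign (58.1%). These pairs share runs and arrays. Of all members 63.2% lay below 0, so some runs and pairs share a sign on that account alone. Whether neighbours share it more often was not tested.

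Other families of zinc finger genes were compared by the same rule. Of all genes, 56.3% lay below 0, 6.83% were at least 1.5-fold lower and 5.89% higher. The 18 ZSCAN and ZKSCAN genes, many of which pair a SCAN domain with C2H2 fingers, had a median log2 ratio of -0.27. Of these, 14 lay below 0 (77.8%), 2 were at least 1.5-fold lower (11.1%) and 0 higher. They ran from ZSCAN2 at -0.75 to ZSCAN5A at 0.58. The 35 ZBTB genes, which add a BTB domain, had a median of -0.13. Among them, 26 lay below 0 (74.3%), 5 were at least 1.5-fold lower (14.3%) and 0 higher. ZBTB10 was their lowest at -1.62, with -0.43 to 0.11 in its other probe sets, and ZBTB2 their highest at 0.46. The 10 ZFP genes had a median of -0.17, with 7 below 0 (70%), 2 at least 1.5-fold lower (20%) and 0 higher. They ran from ZFP36L2, with 1012 and 507, to ZFP36, with 583 and 777. Both ZFP36L2 and ZFP36 encode RNA-binding proteins with another kind of finger. The 19 KLF and SP genes had a median of 0.11. Among these 19, 9 lay below 0 (47.4%), 2 were at least 1.5-fold lower (10.5%) and 4 higher (21.1%). They ran from KLF9 at -1.02 to KLF4, a factor of barrier formation, at 1.41. Their SD was 0.615, against 0.349 for the ZNF members. The difference between families was not tested.

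A mixed list of KRAB co-repressors and general heterochromatin proteins gave 35 measured of 39 listed genes with a median log2 ratio of 0.03. Of these 35, 17 lay below 0, 48.6% against 56.3% of all genes. None was at least 1.5-fold lower, against 6.83% of all genes, and 2 were at least 1.5-fold higher, 5.71% against 5.89%. TRIM28 read 285 and 301, and SETDB1 read 242 and 203, log2 ratios of 0.08 and -0.25. UHRF1, which guides maintenance DNA methylation, went from 319 to 587, and the methyltransferase SUV39H2 from 190 to 287. TASOR, of the HUSH complex, had 0.57 in its brightest probe set and -0.55 in the other. The lowest were MORC2 at -0.45, with -0.38 in its other probe set, CBX5, which encodes an HP1 protein, at -0.32 with up to 0.46 in others, and MORC3 at -0.31.

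Antisense transcripts of ZNF genes were left out of the members. The 9 that passed the same rule all had log2 ratios below 0, with a median of -0.24, beside 56.3% of all genes below 0. Of these 9, 8 lay in the 5 lowest intensity classes, where 70.6% of the genes that are not members were below 0. ZNF436-AS1 was the lowest, from 270 to 65.6, 4.12-fold lower, beside -0.38 for ZNF436 itself.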

How the data were processed

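The authors deposited linear intensities, 1 per probe set for each array, and MAS5 is the tool named in the submitters' processing notes, with no version or target. The 2% trimmed means of the deposited arrays, 199 and 206, were not equal as scaling to 1 target would make them. The summary and scaling used are therefore uncertain. For 76 genes above both medians, 2 of them members, the deposited intensities were equal in every digit on both arrays. The cause was not tested. These 2 members, ZNF875 and ZNF671, had log2 ratios of -0.05 that come from the scaling factor alone. Genes were named from the platform annotation, in which 41091 of 54613 probe sets that are not controls had 1 symbol. All 302 members were found in the RefSeq gene table by Entrez ID with the same symbol. RefSeq proteins were not used here, so the planned classes by KRAB or SCAN domain were not made. The brightest probe set, by mean log2 intensity, stood for its gene. No test was made with 1 array per group. Thresholds were 1.5-fold and 2-fold. Named genes were the 12 highest and 12 lowest members, 34 ZNF genes with a known role, the members at the edge of the rule, the runs with the most members (5, since 3 were tied at 7), and the extremes of the other lists. SP100, SP110 and ZBTB8OS, which share only the letters of a family name, were left out of the families after the values were seen. Genes named for their chromosome, and ZNF436-AS1, were added after their values were seen. The members and lists were chosen with earlier results of these data known. Scripts (Python 3.11.15, pandas 2.3.3, statsmodels 0.14.6 for loess with span 0.4) were tested on simulated arrays.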

Additional observations from a re-analysis of the deposited data

How the results depend on the processing

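The members' median log2 ratio lay below 0 under all 12 alternatives, between -0.13 and -0.02. So did the median of all genes, except after equalising the array medians, where it was 0.04. The sign alone therefore does not set the members apart. Their median minus that of all genes ran from -0.10 (75th percentile floor) to 0.0023 (array medians added as an offset). The difference from other genes of like intensity, -0.03, changed sign with the floor at the 25th percentile (0.0031) and when each array's median was added as an offset (0.0023), and was -0.10 when the floor was raised to the 75th. The cause was not tested. The count at least 1.5-fold lower, 22, was 6 with the floor at the 75th percentile, where 113 members remained, and 10 with the offset. These are 5.31% and 2.14% of the members, against 5.73% and 3.03% of all genes. The count at least 1.5-fold higher, 11, was 17 with equal medians and 17 with the floor at the 25th percentile, 3 at the 75th, 4 with the offset, 7 with the mean over probe sets and 5 without _x_at and _s_at probe sets. The count below 0, 191, was 73 with the floor at the 75th percentile, 64.6% against 51.0% of all genes. With the offset, which kept 467 genes, it was 342, 73.2% against 72.1%. With the floor at the 25th percentile it was 230, 61.5% against 61.9%. For 50 named genes, 542 of the values under an alternative moved by less than the SD between probe sets of 1 gene and 20 by at least that SD. Of these 20, 3 also changed sign: ZNF207 (to -0.42) and ZNF274 (from -0.19 to 0.16) without _x_at and _s_at probe sets, and ZNF592 (from -0.33 to 0.14) with the mean over probe sets. A further 7 sign changes were smaller. Many of the 542 could hardly move. Changes of the floor or of the naming mostly leave a gene's brightest probe set as it is, and the deposited and equal-median scales shift all genes alike. The count is therefore no measure of precision. Signal over background is not given for these arrays, so how it limits low intensities was not tested. No paired analysis was possible because each group holds 1 array, and for the same reason no array could be left out.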
